A study of Mus musculus with 6 samples.

Results

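The enzymes and carriers that make glutamine and glutathione were followed in C3H10T1/2 cells, a mouse mesenchymal line that can form fat, muscle, bone or cartilage, after a short exposure to a glucocorticoid. The set holds 9 genes: Glul, Glud1, Gclc, Gclm, Gss, Gsr, Slc7a11, Slc38a2 and Slc1a5. Every probe whose only annotated gene symbol was one of these names was taken, which gave 15 of the 38467 probes on the array, and all 9 genes entered the comparison of 27046 genes and unnamed probes. The members were chosen by pathway with the measured difference of Glul between these same arrays already known, so the values below describe the genes and support nothing beyond that. Cells grown in serum-containing medium received the solvent DMSO (vehicle) or 1 µM dexamethasone, a synthetic glucocorticoid, and were taken at 90 minutes. Each group has 3 arrays, biological replicates per the series description. Each array compared a culture labelled with Cy3 with a common pool of RNA labelled with Cy5. The pool came from C3H10T1/2 cells given DMSO, dexamethasone or myostatin per the sample labels, while the series description leaves myostatin out.

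Glutamine synthetase (Glul) joins glutamate and ammonia into glutamine, and glutamate dehydrogenase (Glud1) takes glutamate into the citric acid cycle. Glutathione, the main small thiol of the cell, is built from glutamate, cysteine and glycine: glutamate-cysteine ligase, a dimer of a catalytic (Gclc) and a modifier (Gclm) subunit, makes the first bond and limits the rate, glutathione synthetase (Gss) adds glycine, and glutathione reductase (Gsr) returns the oxidised form to the reduced one. Slc7a11 imports cystine in exchange for glutamate, and Slc38a2 and Slc1a5 import glutamine and other neutral amino acids. Glucocorticoids are known to raise glutamine synthetase in muscle and other tissues, where it serves the export of nitrogen.

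Glul and Gclc stood apart from the other 7 genes. With dexamethasone Glul was higher by 3.45 ± 0.17 (SE of the difference) on the log2 scale, 10.9-fold, and Gclc by 2.64 ± 0.23 (SE), 6.22-fold. Among the other 7 the differences ran from -0.37 for Gsr to 1.08 for Slc1a5. These values are the deposited log ratios, read as log2 of sample over pool and averaged over the probes of a gene. The median difference of all 27046 genes and unnamed probes was 0.32. The limma fit over the whole table called 0 of them, 0%, at a Benjamini-Hochberg adjusted p under 0.05, with 1468 at an unadjusted p under 0.05, and 0 of the 9 members. Its adjusted p was 0.0609 for Glul, 0.141 for Gclc and at least 0.732 for the others. With 3 arrays against 3, exact permutation of 1 gene can reach no p below 0.1, and none was run.

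**Figure D1:**
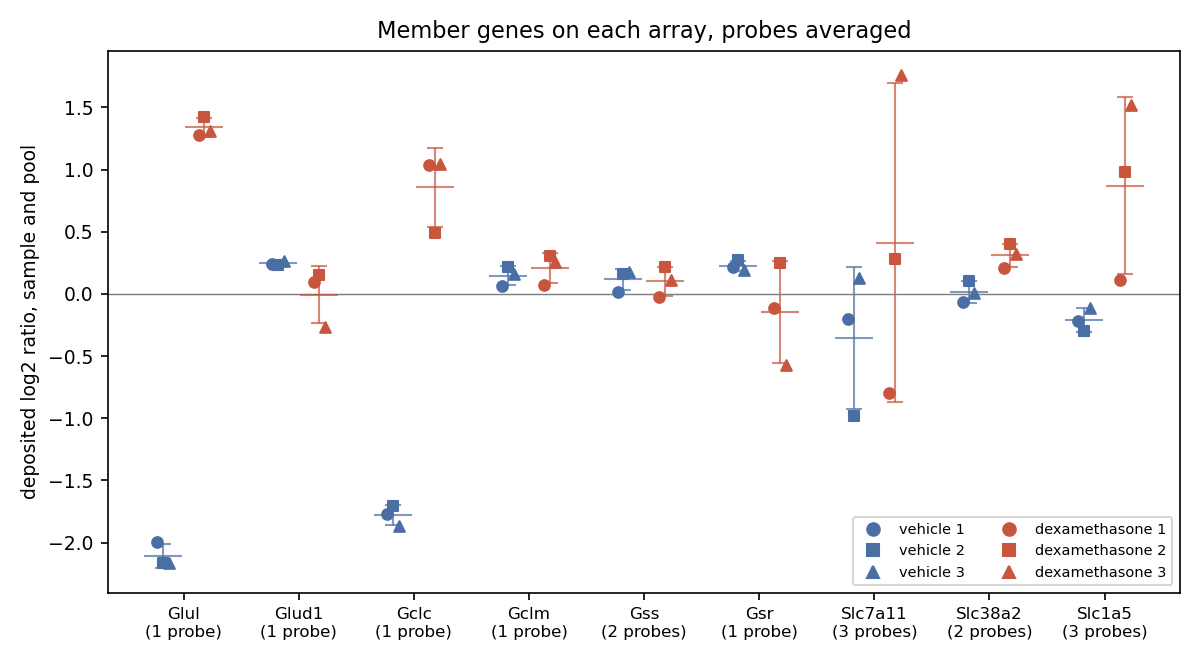
Deposited log2 ratio of sample and pool for each of the 9 genes (vertical axis) on the 3 vehicle (blue) and 3 dexamethasone (red) arrays, probes of a gene averaged; bars give the group mean and SD (n = 3). Glul and Gclc lie at -1.70 or lower on every vehicle array and at 0.49 or higher on every dexamethasone array, while most other genes lie near 0.

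The quality of the arrays sets how these values can be read. Missing values numbered 552 to 932 on the vehicle and 1695 to 4290 on the dexamethasone arrays, and column medians ran from -0.12 to 0.57. Vehicle 1, vehicle 2 and dexamethasone 1 correlated with each other (Spearman 0.40 to 0.55 across probes), as did vehicle 3, dexamethasone 2 and dexamethasone 3 (0.34 to 0.57), while pairs across the 2 sets lay between -0.33 and 0.07. The labels name no batch, and the sets were seen in the data. Most vehicle arrays lie in the former set and most dexamethasone arrays in the latter. Treatment and array set are thus partly confounded in the comparison of all 6 arrays. The spread among arrays was larger with dexamethasone than with vehicle in 8 of the 9 genes and in 84.2% of the 22880 genes and unnamed probes with values on all arrays. Ratios to a pool of the same line carry no absolute level, so the cell type cannot be checked from its markers, and fewer cells of a type cannot be told apart from less RNA per cell. Over all genes and unnamed probes 0% were called, 10.4% lay wholly above vehicle and 6.42% wholly below, with a median difference of 0.32. Of 12 mesenchymal markers 0 were called, 0 lay wholly above and 3 wholly below vehicle (median difference -0.43). Of 12 markers of blood, endothelial, epithelial, liver and neural cells 0 were called, 3 lay wholly above vehicle and 0 below (median 1.03). Of these 12, 4 kept a probe after the low-signal filter described below. The 3 above vehicle were Rbfox3, Cd3e and Pecam1, and each had at least 1 low-signal probe. Cd3e had values on 2 dexamethasone arrays only. The part of either list in the results was not tested.

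The direction of the ratio is likely but not settled. The labels give the dyes and not which way the ratio was taken. Correlations between arrays, such as -0.33 for vehicle 2 and dexamethasone 3, stay the same when all signs are turned and cannot decide it. Of 6 textbook glucocorticoid targets (Fkbp5, Per1, Tsc22d3, Sgk1, Zbtb16 and Dusp1), 5 lay wholly above vehicle as deposited, against 10.4% of all genes and unnamed probes. Zbtb16 did not, but its 1 probe had no value on dexamethasone 3. It gave -2.04 on dexamethasone 1 and 0.94 on dexamethasone 2, against -0.45 to 0.36 in vehicle. If the pool held only vehicle and dexamethasone RNA, Glul would put the dexamethasone share of the pool at 0.334 when read as sample over pool and at 0.845 when read the other way. For Gclc these shares were 0.466 and 0.845, and for the 5 targets 0.305 to 0.596 and 0.589 to 0.938. Zbtb16 gave -0.447 and -0.305, which no share can be. The shares cannot decide the direction. The true share is not known, both readings give possible shares for the other genes, and the sample labels add myostatin RNA to the pool. With the sign turned, each difference keeps its size, Glul and Gclc would be lower with dexamethasone, and every "higher" and "lower" in the text would change places.

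Glul, the enzyme that makes glutamine, gave the tightest values of the set relative to its difference. Its log2 ratio (probe mMC005445, Entrez gene 14645) was -1.99, -2.17 and -2.16 in vehicle replicates 1 to 3 and 1.28, 1.43 and 1.31 in dexamethasone replicates 1 to 3. The groups lay more than 3 log2 units apart, and the values within a group were close together, with SDs of 0.10 and 0.08 (n = 3 each). The gene has 1 probe, with a value on all 6 arrays. Within the set of vehicle 1, vehicle 2 and dexamethasone 1 the difference was 3.36, and within the other set 3.53, while the median over all genes was -0.05 in the former and 0.24 in the latter.

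The promoter of Glul is shown because this gene carries the clearest difference of the set. The 250 bases before its start, from RefSeq on GRCm38.p6 at chr1:153899679-153899928, plus strand, read 5′ to 3′ as follows, all in lower case since none of the motifs searched occurs in them.
Glul: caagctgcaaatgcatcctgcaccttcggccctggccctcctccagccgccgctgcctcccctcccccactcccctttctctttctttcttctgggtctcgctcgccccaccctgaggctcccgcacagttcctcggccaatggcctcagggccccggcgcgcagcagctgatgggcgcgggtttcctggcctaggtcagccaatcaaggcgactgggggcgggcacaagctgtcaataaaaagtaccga
The motifs were the core of the glucocorticoid response element (the triplets ACA and TGT, 3 bases apart, each flanked after 1 further base by G before and C after), the antioxidant response element bound by NRF2, TGACNNNGC, and the amino acid response element bound by ATF4, TGATGNAAN, each on both strands. Of all 32851 promoters in the table, 0.387%, 10.2% and 3.44% held them in the same window. The missing match says only that these letters are not in this window.

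Glud1, which also draws on glutamate, gave slightly lower values with dexamethasone. Its log2 ratio was 0.24, 0.24 and 0.26 in vehicle and 0.10, 0.15 and -0.27 with dexamethasone. All 3 dexamethasone values lay below all 3 vehicle values, but the difference of -0.25 ± 0.20 (SE) has a 95% interval from -0.75 to 0.25. Since both genes are read on the same array, their ratio does not depend on any shift of a whole array: the log2 ratio of Glul minus that of Glud1 was -2.35 ± 0.11 (SD, n = 3) in vehicle and 1.35 ± 0.21 (SD, n = 3) with dexamethasone, a change of 3.70.

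The 2 subunits of glutamate-cysteine ligase differed from each other: Gclc was higher with dexamethasone, and Gclm was near 0. Gclc, the catalytic subunit, had log2 ratios of -1.77, -1.70 and -1.86 in vehicle and 1.04, 0.49 and 1.05 with dexamethasone. All dexamethasone values lay more than 2 log2 units above all vehicle values, with dexamethasone 2 the lowest of the 3. Gclm, the modifier subunit, had 0.06, 0.22 and 0.16 in vehicle and 0.07, 0.30 and 0.26 with dexamethasone, and its groups overlapped. The difference of Gclm was 0.06 ± 0.17 (SE), with a 95% interval from -0.38 to 0.51, which leaves out the difference seen for Gclc. Within each array Gclc minus Gclm was -1.93 ± 0.09 (SD, n = 3) in vehicle and 0.65 ± 0.41 (SD, n = 3) with dexamethasone, a change of 2.57. Each subunit has 1 probe, free of missing values. In the 2 sets of arrays the difference of Gclc was 2.77 and 2.63, and that of Gclm -0.07 and 0.12.

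The enzymes of the later steps of glutathione metabolism showed no separation. Gss, which adds glycine, was read by 2 probes, and their mean was 0.12 ± 0.09 in vehicle and 0.10 ± 0.12 with dexamethasone (SD, n = 3 each). The probe differences were -0.04 and 0.00, and the 95% interval of the gene's difference ran from -0.46 to 0.43. Gsr, which regenerates reduced glutathione, had 0.21, 0.27 and 0.19 in vehicle and -0.12, 0.25 and -0.57 with dexamethasone. Its dexamethasone 2 value lay among the vehicle values and the other 2 below them, giving -0.37 ± 0.26 (SE), with an interval from -1.04 to 0.30. With arrays centred on their medians, Gsr lay wholly below vehicle, at -0.68 ± 0.35 (SE).

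**Figure D2:**
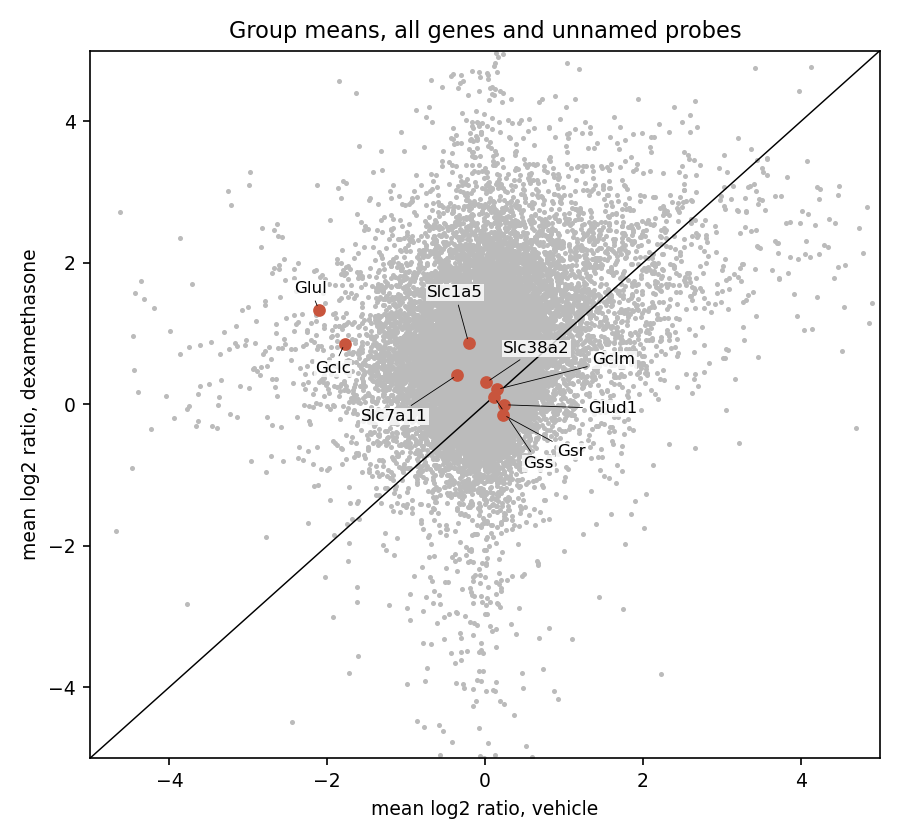
Mean log2 ratio with dexamethasone (vertical) against vehicle (horizontal), each over up to 3 arrays, for the genes and unnamed probes within 5 of 0 on both axes (26813 drawn in grey, 233 outside); the line marks equal means. The 9 named genes are in red, with Glul and Gclc at the upper left, far above the line, and Gclm, Gss, Gsr and Glud1 close to it.

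The glutamine carriers gave small or uneven differences. Slc38a2 (SNAT2), a sodium-coupled carrier of small neutral amino acids, was the most even: its 2 probes differed by 0.29 and 0.30, and both had all dexamethasone values above all vehicle values. The gene's log2 ratio was -0.07, 0.10 and 0.01 in vehicle and 0.21, 0.40 and 0.32 with dexamethasone. The difference of 0.29 ± 0.17 (SE) lies near the median of 0.32 over all genes, and it was -0.01 after median centring. Within the 2 sets of arrays it was 0.19 and 0.35, beside medians over all genes of -0.05 and 0.24.

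Slc1a5 (ASCT2), an exchanger of glutamine for other neutral amino acids, differed by 1.08 ± 0.40 (SE) as a mean of 3 probes that disagreed. Probe mMC009240 gave 0.38, 0.05 and -1.23 on the dexamethasone arrays. Probe mMO035660 gave -0.04, 2.38 and 2.55, and probe mMO035686 gave -0.01, 0.52 and 3.24. On the vehicle arrays all 3 probes lay between -0.36 and 0.12. The disagreement thus arose on the dexamethasone arrays, above all on dexamethasone 3, where the probes spanned from -1.23 to 3.24. The gene mean lay wholly above vehicle, but by 0.37 within the set of vehicle 1, vehicle 2 and dexamethasone 1 and by 1.36 within the other.

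Slc7a11 (xCT), the cystine importer, was the most variable gene of the set, in both groups. Averaged over 3 probes its log2 ratio was -0.20, -0.99 and 0.13 in vehicle and -0.80, 0.28 and 1.76 with dexamethasone, and the groups overlapped. On vehicle 3 its probes ranged from -1.06 to 1.05, and on dexamethasone 1 from -2.11 to -0.12. The difference of 0.77 ± 0.74 (SE) has an interval from -1.12 to 2.65, too wide to show or to leave out a change of the size seen for Gclc. Within the 2 sets of arrays it was -0.21 and 0.89.

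**Figure D3:**
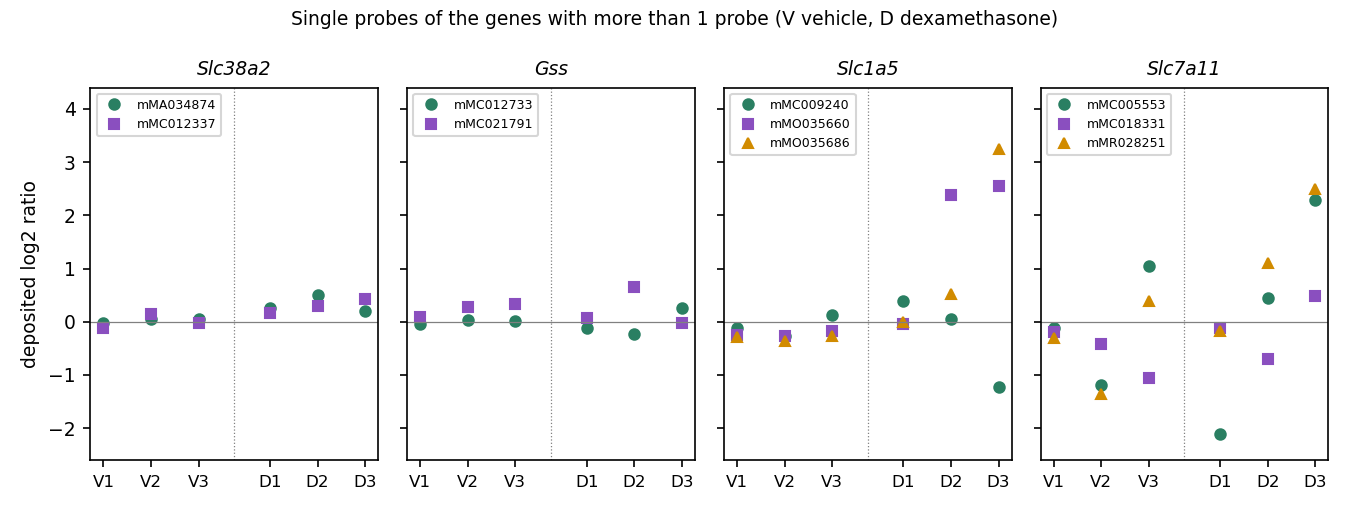
Deposited log2 ratio (vertical) of each probe on each array (V1 to V3 vehicle, D1 to D3 dexamethasone) for the 4 genes with more than 1 probe. The 2 probes of Slc38a2 run together, while those of Slc1a5 part on D2 and D3 and those of Slc7a11 are scattered in both groups.

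The Slc7a11 promoter is shown because it holds a pair of matches to the motif of ATF4. It lies at chr3:50443614-50443863, minus strand, RefSeq on GRCm38.p6, and its 250 bases before the start are printed 5′ to 3′ with matches to the amino acid response element in capitals.
Slc7a11: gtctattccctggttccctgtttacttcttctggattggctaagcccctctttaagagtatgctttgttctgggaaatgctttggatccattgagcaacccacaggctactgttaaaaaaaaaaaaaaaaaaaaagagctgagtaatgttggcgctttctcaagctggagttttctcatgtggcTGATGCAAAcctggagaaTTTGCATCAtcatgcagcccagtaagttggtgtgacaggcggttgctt
The first match, TGATGCAAA, lies 66 to 58 bases before the start, and the second, TTTGCATCA, is the motif on the other strand, 48 to 40 bases before it. At least 2 matches occur in 0.0396% of all promoters in the table. Of the 6 members with a promoter there (Glul, Glud1, Gclm, Gss, Slc7a11 and Slc38a2), 0 held the glucocorticoid core and 2 the antioxidant motif: Gclm, with GCACCGTCA, 134 to 126 bases before the start, and Slc38a2, with TGACGCGGC, 27 to 19 bases before it. The 2 genes with this match differed by 0.06 (Gclm) and 0.29 (Slc38a2), and a link between motif and difference was not tested. Gclc, Gsr and Slc1a5 had no promoter in the table.

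Over the 9 genes, 4 lay wholly above vehicle (Glul, Gclc, Slc38a2 and Slc1a5), 1 wholly below (Glud1) and 4 overlapped. Over all genes and unnamed probes 10.4% lay wholly above and 6.42% wholly below. After median centring 3 lay wholly above (Glul, Gclc and Slc1a5) and 1 below (Gsr), against 6.43% and 3.82% of all. Of the 15 probes 6 lay wholly above and 1 wholly below, against 10.8% and 7.44% of all probes. The median difference of the 9 genes was 0.29, beside 0.32 over all. The members were chosen with this contrast known, so these shares are given as a description.

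A filter on probes taken as weak changed which genes passed. Signal itself is not known, so low signal in this text means only that a probe met the rule that follows. A probe was dropped when at least 1 array lacked its value, gave more than 10 in size, or gave exactly the log2 of a quotient of small integers (1 to 10). This removed the probe of Gsr and left the other 8 members untouched, 4 wholly above vehicle (background 10.4%) and 1 wholly below (background 9.33%). On the 17152 genes and unnamed probes that stayed, limma called 29 (0.169%), 26 of them higher (0.152%), at an adjusted p under 0.05, and Glul (adjusted p = 0.00744) and Gclc (adjusted p = 0.0401) were among them. The other 6 members had an adjusted p of at least 0.574. Among these 17152, 60 had a difference larger than that of Glul, 31 of them with groups that did not overlap. For Gclc these counts were 256 and 86. With the replicate numbers as a block, the filtered fit called 0 members (adjusted p = 0.536 for both genes), and after median centring 0 (0.0799 for Glul and 0.386 for Gclc). Both calls were also lost without vehicle 1, vehicle 2, vehicle 3 or dexamethasone 3, with adjusted p from 0.0768 to 0.236 for Glul and from 0.118 to 0.472 for Gclc. Without dexamethasone 2 both were kept (0.0426 and 0.0490). Without dexamethasone 1, treatment and array set are more confounded than with all arrays, since no dexamethasone array is left beside vehicle 1 and vehicle 2. There the calls rose to 934 of the 17152 genes and unnamed probes, 815 higher and 119 lower. Glul, Gclc and Slc1a5 were among them (0.0260, 0.0327 and 0.0444).

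The genes most like Glul over the 6 arrays, by root mean square distance of the log2 ratios among 16509 named genes with all values, were Tcim (0.35), the G protein regulator Rgs2 (0.39), the transcription factor Cebpb (0.42), Gclc (0.48) and Fam107a (0.48). Gclc was thus among the 5 closest, although the distance uses both groups' levels against the pool and not the difference alone. By the same measure, added after its values were seen, Gclc lay closest to Spsb1 (0.21), Fam107a (0.23), Adm (0.25), Tcim (0.28) and Rgs2 (0.30). The only probe of Fam107a, named for both genes, was of low signal. Such a distance over 6 arrays of 2 groups is a description.

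The pathways around the members were followed through 6 lists, none of which held a gene that passed the test over all genes. Their counts of genes wholly above or below vehicle stand beside 10.4% and 6.42% of all genes and unnamed probes, and most lists hold members of the set. Of 22 measured enzymes of glutamine and glutamate metabolism, 2 lay wholly above vehicle and 4 wholly below (1 and 3 of 20 without the members), and the median difference was 0.10, against 0.32 over all genes. By p, Glul came first, then Prodh, the proline dehydrogenase that leads to glutamate (2.93 ± 1.15, SE, its only probe of low signal), and Gmps, a glutamine-using enzyme of guanine nucleotide synthesis (-0.47 ± 0.21, SE). The largest p belonged to the serine pathway transaminase Psat1 (-0.04 ± 0.19, SE) and the alanine transaminase Gpt2 (-0.15 ± 0.50, SE).

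Of 24 measured carriers of glutamine, glutamate and cystine, 6 lay wholly above vehicle and 0 below (4 and 0 of 21 without the members), with a median of 0.52. The glial glutamate carrier gene Slc1a2 led by p (2.94 ± 0.81, SE), but both of its probes were of low signal. Slc1a4 (ASCT1), the closest relative of Slc1a5, was read by 1 probe free of low signal and gave -0.35 ± 0.02 in vehicle and 0.25 ± 0.12 with dexamethasone (SD, n = 3 each), a difference of 0.60 ± 0.17 (SE). Slc1a3, another glutamate carrier (0.01 ± 0.17, SE), and the glutamine carrier Slc38a1 (0.04 ± 0.43, SE) had the largest p.

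Of 20 measured genes of glutathione synthesis, breakdown and recycling, 4 lay wholly above vehicle and 0 below (3 and 0 of 16 without the members), and the median was 0.15. Behind Gclc came Dpep1, a membrane dipeptidase that splits the cysteinylglycine left from glutathione outside the cell. Its log2 ratio was -0.62 ± 0.17 in vehicle and 1.33 ± 0.45 with dexamethasone (SD, n = 3 each), a difference of 1.95 ± 0.29 (SE), 3.85-fold. Cbs, which starts the route from homocysteine to cysteine, differed by 2.39 ± 0.99 (SE), with overlapping groups. The mitochondrial glutathione carrier gene Slc25a39 (-0.01 ± 0.21, SE) and Gss had the largest p. Of 28 enzymes that use glutathione, such as peroxidases, transferases and glutaredoxins, 1 lay wholly above vehicle and 2 below, and the median was 0.29. The transferase Gsto1 (-0.44 ± 0.20), the glutaredoxin Glrx (0.35 ± 0.17) and the microsomal transferase Mgst2 (1.78 ± 0.99) led by p, and Glrx5 (0.02 ± 0.30) and Gstm2 (-0.03 ± 0.26; SE for all 5) came last.

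Gclc is a known target of NRF2, the transcription factor of the antioxidant response, and Slc7a11, Slc38a2 and Slc1a5 are counted among the genes that ATF4 drives when amino acids run short. Of 24 measured genes of the NRF2 pathway, 5 lay wholly above vehicle and 3 below (4 and 3 of 20 without the members), with a median of 0.18. After Gclc came Mafg, a partner of NRF2 on DNA (-0.45 ± 0.08 in vehicle and 0.30 ± 0.18 with dexamethasone, SD, n = 3 each), and the autophagy receptor Sqstm1 (0.39 ± 0.04 and -0.12 ± 0.22). The ferritin gene Fth1 (0.00 ± 0.20, SE) and Pgd of the pentose phosphate pathway (-0.03 ± 0.18, SE) had the largest p.

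Of 28 measured genes of the ATF4 response, 10 lay wholly above vehicle and 1 below, or 8 and 1 of 25 without the members, against 10.4% and 6.42% of all. The median was 0.54, or 0.23 after median centring. Cebpb was first by p (3.18 ± 0.24, SE), followed by Ddit4, an inhibitor of mTOR signalling (1.52 ± 0.21, SE), and Mthfd2, a mitochondrial folate enzyme. Mthfd2 stood at -0.36 ± 0.12 in vehicle and 1.01 ± 0.29 with dexamethasone (SD, n = 3 each). Cebpb and Ddit4 are also known glucocorticoid targets. Gpt2 and Psat1, named above, had the largest p of this list too. Asparagine synthetase (Asns), a standard ATF4 target named here after its value was seen, differed by 0.07 ± 0.21 (SE). It is 1 of 17 genes of the list whose groups overlapped, beside the 10 wholly above vehicle and 1 below. The part of ATF4 was not tested.

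**Figure D4:**
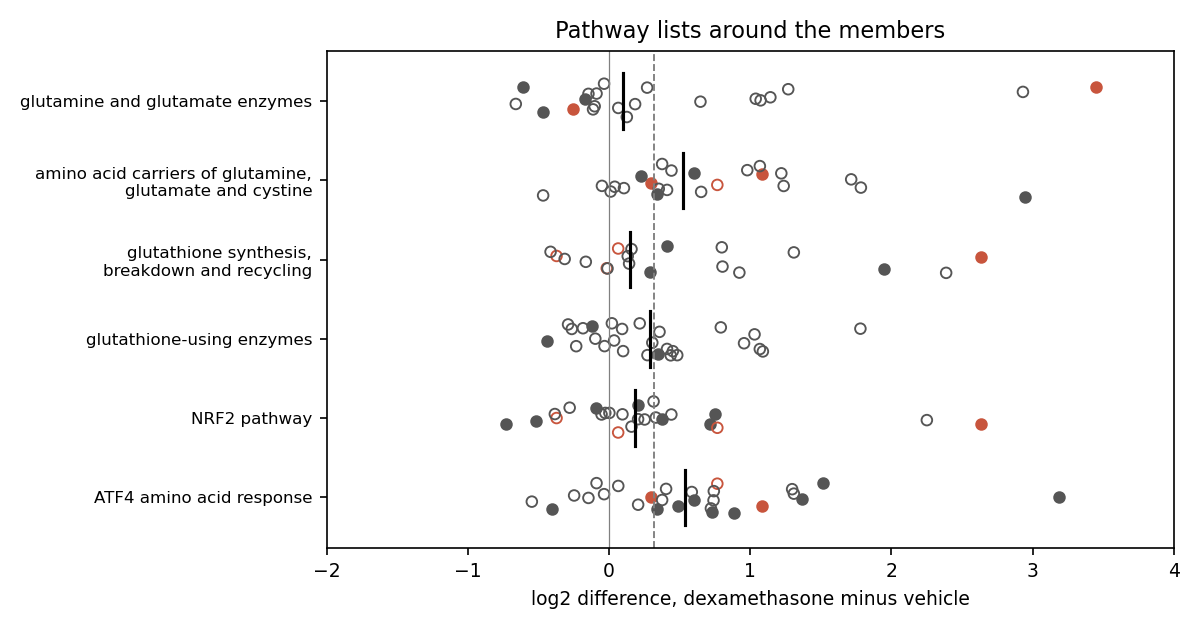
Log2 difference, dexamethasone minus vehicle (horizontal), of each measured gene in the 6 lists; filled points have groups that do not overlap, red points are the 9 named genes, black bars give the list medians and the dashed line the median of 0.32 over all genes. Medians lie between 0.10 and 0.54, and 5 points beyond the axis are not drawn.

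Median centring of the arrays lowers every gene measured on all 6 by the same amount, so among the members only small differences changed sign. It lowered Glul to 3.14 and Gclc to 2.33. It turned Gclm to -0.24 and Slc38a2 to -0.01 and moved Gss to -0.32 and Glud1 to -0.56. Over 24 alternative settings Glul stayed between 3.14 and 3.51 and Gclc between 2.33 and 2.82, and neither changed sign.

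**Figure D5:**
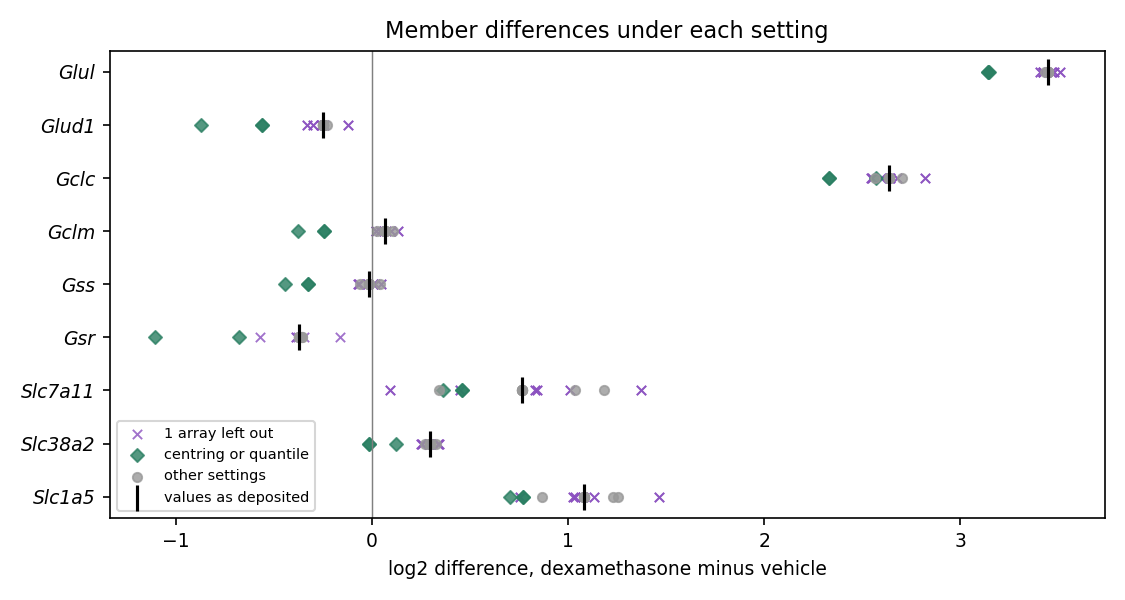
Log2 difference of each gene (horizontal) with values as deposited (black bar), after centring or quantile normalization (green), with 1 array left out (purple) and under other settings (grey). Glul and Gclc stay at 2.33 or higher throughout, while Gclm, Gss and Slc38a2 lie on both sides of 0.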

How the data were processed

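Cultures and pool were compared on 6 two-colour arrays. The deposited values are scores, read as log2 from the values: sizes of exactly 1.000, 1.585 and 2.000 (log2 of 2, 3 and 4) occur 1090, 1010 and 774 times, against 32.4, 11.8 and 7.6 on average at neighbouring values, and the natural log and log10 of 2, 3 and 4 show no such excess. On 4 arrays some values exceed 100 in size, which this reading does not cover. The authors used limma, per the submitters' processing notes; how spots were corrected, scaled or filtered is not stated there. Probes were named through the platform annotation supplied for them; of 29456 with 1 symbol, 28735 matched a RefSeq gene. Probes of a gene were averaged (avereps), and a gene needed 2 values per group. lmFit and eBayes (R 4.3.3, limma 3.58.1) compared dexamethasone with vehicle, two-sided, no block, with Benjamini-Hochberg adjustment over the whole table at 0.05; the fit was tested on simulated data. The number of arrays limits the precision.

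Members and lists were chosen with earlier results of these data known. Named were all members, per list the 3 genes with the smallest and 2 with the largest p, and the 5 nearest to Glul. A fold is the difference taken out of log2, SE is moderated, and intervals are 95%. Motifs were searched in the 250 bases before each RefSeq start; the bases after it, part of the planned window, were left out. Alternatives were scaling, blocks, weights, priors, filters, probe handling and leaving out arrays; the low-signal filter combined with centring, with the replicate block or with an array left out was added after seeing the data.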

Additional observations from a re-analysis of the deposited data

How the results depend on the processing

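The count of genes called (0) and of members called (0) stayed at 0 after median centring, after quantile normalization, without values beyond 10 in size, with array weights, with a robust prior, with the array set as a block, with probes fitted singly or combined by their median, and without any 1 array. It was 29 genes of 17152 and 2 members after the low-signal filter. Where values on all 6 arrays were required, it was 5 genes of 22880 and 1 member (Glul). Both settings test fewer genes, and both also gave a smaller moderated SE. For Glul it was 0.170 in the main fit, 0.130 after the filter and 0.148 with values on all arrays, at the same difference of 3.45. With the replicate block 0 genes and 0 members were called. Whether replicate numbers pair the arrays is not settled, since only the numbers are shared. The deviations of same-numbered arrays correlated at 0.284, -0.123 and 0.255, and those of differently numbered arrays at -0.403 to 0.284. After the filter, leaving out 1 array gave 0 to 934 of 17152 genes and unnamed probes called, and 0 to 3 of 8 members. The highest counts of both came without dexamethasone 1. Members whose groups did not overlap numbered 5 of 9, beside 16.9% of all genes and unnamed probes, and 3 of 8 after the filter with median centring, beside 9.68%. Without 1 array they numbered 5 to 7, beside 20.1% to 55.1% of all, and groups of fewer arrays overlap less. The 7 and the 55.1% came without dexamethasone 1, where treatment and array set are more confounded than with all arrays. Without any other array the share was at most 28.5%. In the 24 settings Gss changed sign in 7, Gclm in 3 and Slc38a2 in 2, and the other members in 0, Gsr having been measured in 15. The cause was not tested. Signal over background is not known for these values.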
